A study of Mus musculus with 20 samples.

Results

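Tubulins are the alpha and beta subunits of microtubules, and 9 tubulin genes were followed here in a murine B16 melanoma line: the beta-tubulin genes Tubb2b, Tubb2a, Tubb3, Tubb4b, Tubb5 and Tubb6, and the alpha-tubulin genes Tuba1a, Tuba1b and Tuba1c. Their probes were found by matching each probe's transcript accession to these genes, which gave 11 probes: 2 each for Tubb2b and Tuba1b and 1 each for the other 7. The 9 genes were among 18738 tested, and all 9 passed the filter on dim probes. Tubb2b was chosen by its measured rise against void plasmid in these same arrays, so its levels are given as a description without a test. The other 8 were taken as relatives in the family and were tested.

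Microtubules are hollow polymers of alpha/beta-tubulin dimers that carry intracellular transport, shape cells and build the mitotic spindle. Mammals make each subunit from several genes, the isotypes, which differ mainly in their acidic C-terminal tails and in the tissues that use them. Tubb2b, Tubb2a, Tubb3 and Tuba1a are best known from neurons, whereas Tubb5, Tubb4b, Tuba1b and Tuba1c are made by most dividing cells. Because coding sequences of the isotypes are very similar, probes can in principle bind more than 1 isotype, and this was not tested.

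The cells were a B16 line carrying Bcr-Abl, a fusion kinase of leukaemia, and all groups share that background. They received void plasmid (3 arrays), wild-type p65/RelA (WT, 3 arrays), the D361E form that cannot be cleaved (3 arrays), p65 residues 1 to 361 (N-fragment, 3 arrays), residues 362 to 549 (C-fragment, 3 arrays) or both fragments together (N+C, 5 arrays). RelA is a DNA-binding subunit of NF-kB, and the series set out to compare genes under the intact, uncleavable and fragment forms. The strain is labelled C3H eOuJ, whereas B16 is known as a line of another mouse strain. The reason for this conflict is not known, and the strain label was not used. The labels give neither the plasmid's promoter nor the time after transfection, and they do not say whether replicates are separate cultures, so the spread behind each p-value may be technical. The endogenous Rela gene is not described as removed, and total RNA of a culture does not tell a change in every cell from a change in the share of cells.

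Each of the 20 one-colour arrays had 51.1 to 57.9% of its spots well above background, and a level below is the log2 signal relative to that array's 75th percentile. Of 12 melanocyte markers 11 were above background on all 20 arrays. Of 15 neuronal markers 7 were above background on all 20, namely Syp, Snap25, Ina, Eno2, Elavl4, Uchl1 and L1cam. Rbfox3, Nefl, Nefm, Stmn2 and Dcx were above background on none. The summed level of the 14 neuronal markers with a value on every array, in multiples of the 75th percentile, lay between 3.02 and 5.04 on void arrays, 2.80 and 3.33 with WT, 2.38 and 3.50 with D361E, 2.81 and 3.30 with the N-fragment, 2.99 and 3.80 with the C-fragment and 2.25 and 3.71 with N+C. Rela itself was above background on every array. It rose with the N-fragment (0.36 ± 0.07 log2, SE, limma adjusted p = 0.00089) and was not called against void with the other 4 constructs (adjusted p from 0.0512 to 0.571).

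The N+C arrays stood in 2 sets. Arrays 1 to 3 correlated with each other, and arrays 4 and 5 with each other, at r from 0.989 to 0.992 over 18671 genes, whereas pairs across the sets gave 0.974 to 0.982. Replicates of the other groups gave 0.984 to 0.992. The sets do not follow the slides, since N+C arrays 1 and 4 shared slide 5. N+C calls that change between the sets are given for each set as well.

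Tubb2b is a beta-tubulin that is abundant in migrating and maturing neurons. On its brighter probe it was near the background limit with void plasmid and clearly above it with any single p65 construct. Its brighter probe (A_55_P2034864) read -5.07, -5.19 and -5.85 on the void arrays, of which 2 of 3 were above background. With WT it read -1.77, -1.93 and -1.98, and with D361E it read -2.36, -1.89 and -2.22. The WT and D361E arrays overlapped each other and lay far above void. With the C-fragment the levels were -0.52, -0.53 and -0.80, and with the N-fragment they were 0.70, 0.72 and 0.68. The N-fragment arrays were the highest of the 20 and spanned less than any other group. With N+C the probe read -7.13, -7.53, -7.93, -7.43 and -7.12, and 0 of 5 arrays were above background.

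The order of the group means was thus N-fragment (0.70 ± 0.02, SD, n = 3), C-fragment (-0.62 ± 0.16, n = 3), WT (-1.89 ± 0.11, n = 3), D361E (-2.15 ± 0.24, n = 3), void (-5.37 ± 0.42, n = 3) and N+C (-7.43 ± 0.33, n = 5). Of the neighbours in that order, WT and D361E did not differ beyond their spread, and void and N+C are not ranked here, since the probe was at or near background in both. The arrays of the remaining neighbours did not overlap. Against void the level was 67.3-fold higher with the N-fragment (6.07 ± 0.21 log2, SE), 27.0-fold with the C-fragment (4.75 ± 0.21), 11.1-fold with WT (3.48 ± 0.21) and 9.31-fold with D361E (3.22 ± 0.21). These folds depend on how the low void signal is treated: with local background subtraction the differences were 3.85, 2.59, 1.53 and 1.42 log2 in the same order. Each fragment alone had a higher reading than the intact forms, and with the 2 fragments together the probe was above background on 0 of 5 arrays.

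Since no N+C array was above background on the brighter probe, N+C has only a bound there, computed against the lowest well-detected signal of each array. On that basis this probe was at least 105-fold lower with N+C than with the N-fragment and at least 42.2-fold lower than with the C-fragment. It was at least 17.4-fold lower than with WT and at least 14.6-fold lower than with D361E. A probe below background on 5 of 5 arrays cannot show whether Tubb2b differed between the 2 sets of N+C arrays. Slides that carried both groups gave differences from void of 3.14 for WT, 3.97 and 2.98 for D361E, 6.56 for the N-fragment, 4.27 for the C-fragment and -1.27 to -2.47 for N+C, where the probe was below background.

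The second Tubb2b probe (A_51_P514256) gave another picture. It read -4.26, -4.47 and -4.08 with void, -3.95, -3.76 and -4.74 with WT, and -4.11, -5.73 and -4.04 with D361E. With the C-fragment it read -4.39, -3.24 and -3.45, and with the N-fragment -3.84, -2.63 and -2.44. With N+C it read -4.81, -4.42, -2.69, -6.05 and -5.45, and 4 of those 5 were above background. Here arrays 1 to 3 had a mean of -3.97 and arrays 4 and 5 of -5.75, without overlap. The N-fragment arrays lay above the 3 void arrays here too, while the arrays of WT, D361E, the C-fragment and N+C overlapped void. Differences from void on this probe were 1.30 ± 0.68 for the N-fragment, 0.58 ± 0.68 for the C-fragment, 0.12 ± 0.68 for WT, -0.36 ± 0.68 for D361E and -0.42 ± 0.61 for N+C. Against the single fragments N+C differed on this probe by -1.72 ± 0.61 (N-fragment) and -0.99 ± 0.61 (C-fragment). The large rise of Tubb2b with 4 constructs, and the large drop with N+C against them, thus rest on 1 of its 2 probes. The cause of the disagreement was not tested.

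**Figure D1:**
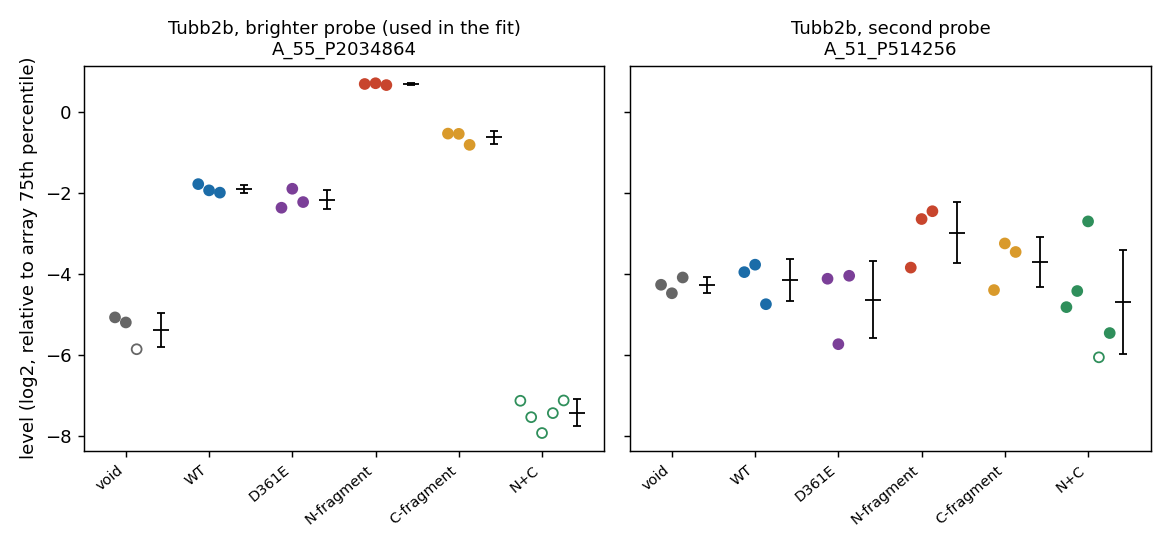
Level of Tubb2b on each of the 20 arrays by its 2 probes; the y axis is log2 signal relative to the array's 75th percentile, filled points were well above background and open points were not, and black bars give mean ± SD. On the brighter probe the N-fragment arrays sit at 0.68 to 0.72 and the N+C arrays at or below -7.12, whereas on the second probe the groups lie between -6.05 and -2.44.

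Tubb2a, the closest relative of Tubb2b and its direct neighbour on the chromosome, rose with the N-fragment and with N+C. The void arrays read 1.42, 1.50 and 1.62, and the N-fragment arrays 3.32, 3.06 and 2.95, with no overlap. The difference was 3.02-fold (1.59 ± 0.29 log2, limma adjusted p = 0.000581). WT (1.59, 1.54 and 1.53) and the C-fragment (1.46, 1.30 and 1.21) overlapped void. D361E (1.89, 2.19 and 2.09) lay above void without overlap but was not called (0.54 ± 0.29, adjusted p = 0.275). With N+C the level was 3.41, 3.33 and 3.40 on arrays 1 to 3 and 2.11 and 2.21 on arrays 4 and 5, so the 2 sets are separate while both lie above void. Over all 5 arrays the difference was 1.38 ± 0.26 (adjusted p = 0.00115). It was 1.86 with arrays 1 to 3 alone and 0.65 with arrays 4 and 5 alone, both called, and not called when the fit held only void and N+C (adjusted p = 0.054).

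Where the brighter Tubb2b probe was high with both fragments taken singly, Tubb2a was high with the N-fragment and not with the C-fragment. Between the 2 fragments Tubb2a differed by 1.79 ± 0.29 log2 (adjusted p = 0.000331). With N+C, where the brighter Tubb2b probe was below background on 5 of 5 arrays, Tubb2a remained above void on 5 of 5. Over the 20 arrays, which share their groups, slides and scaling, the levels of Tubb2b correlated with those of the other 8 at r between -0.54 and 0.24.

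Tubb3, the beta-tubulin used as a marker of neurons and also made by some tumours, had a shape like that of Tubb2a but a larger spread. Void read 2.48, 2.23 and 2.10, WT 2.08, 2.01 and 1.96, D361E 1.75, 1.71 and 1.80, and the C-fragment 2.01, 2.08 and 1.87. The N-fragment read 2.86, 3.35 and 3.37, above every array of those 4 groups, and was not called against void (0.92 ± 0.41, adjusted p = 0.106). It was called when the limma fit held only these groups (0.92 ± 0.18, adjusted p = 0.0193) and without scaling (1.26 ± 0.43, adjusted p = 0.0285). Of 6 fits that leave out 1 array, 0 called it. With N+C the level was 3.25, 3.51 and 3.29 on arrays 1 to 3 but 1.75 and 1.50 on arrays 4 and 5, so that the former lie above the void arrays and the latter below them. The mean of all 5 was not called against void (0.39 ± 0.37, adjusted p = 0.507). With arrays 1 to 3 alone it was called higher (1.08 ± 0.13, adjusted p = 1.39e-05), and with arrays 4 and 5 alone it was called lower (-0.64 ± 0.15, adjusted p = 0.00577), so the direction for Tubb3 depends on which N+C arrays are taken.

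Tubb6, a divergent isotype known to loosen microtubule networks when abundant, changed in both directions. Void read 4.07, 4.08 and 4.18, the N-fragment 4.83, 4.72 and 4.66, and N+C 5.31, 5.27, 5.28, 5.05 and 5.06. These 3 groups did not overlap, and N+C was the highest. Tubb6 rose 1.54-fold with the N-fragment (0.63 ± 0.09, adjusted p = 9.28e-05) and 2.12-fold with N+C (1.08 ± 0.08, adjusted p = 1.85e-07). It was also higher with N+C than with the N-fragment (0.46 ± 0.08, adjusted p = 0.000851). With D361E, at 3.51, 3.88 and 3.71, it fell by 0.41 ± 0.09 (adjusted p = 0.00747), a call that was lost when the fit held only these 2 groups (adjusted p = 0.0948) and without scaling between arrays (adjusted p = 0.0956). With WT, at 3.81, 3.80 and 3.80, the difference was -0.31 ± 0.09 and was not called (adjusted p = 0.0518). Some other limma settings called it, among them only the groups compared (adjusted p = 0.0395), whereas without scaling the difference was 0.09 (adjusted p = 0.444). The C-fragment read 4.07, 3.98 and 3.88 and was not called.

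Tubb4b, a widely made beta-tubulin that is enriched in cilia, rose modestly with the N-fragment and N+C. Void read 5.80, 5.93 and 5.90, the N-fragment 6.45, 6.38 and 6.31, and N+C 6.22, 6.23, 6.21, 6.32 and 6.29, with no overlap with void. The rise was 1.42-fold with the N-fragment (0.51 ± 0.07, adjusted p = 4.02e-05) and 1.30-fold with N+C (0.38 ± 0.06, adjusted p = 0.000323). The WT, D361E and C-fragment arrays lay between 5.88 and 6.22 and were not called. D361E was near the threshold (0.21 ± 0.07, adjusted p = 0.055). Some other limma settings called it, among them quantile normalization (0.29, adjusted p = 0.0108), and the fit with only the groups compared did not (adjusted p = 0.258). Tubb5, the main beta-tubulin of dividing cells, ranged from 6.82 to 7.63 over the 20 arrays and was called against void with none of the 5 constructs. Its largest difference was 0.32 ± 0.13 with the N-fragment (adjusted p = 0.0783). Some other limma settings called it, among them quantile normalization (0.39, adjusted p = 0.00813) and the slide as a block (0.32, adjusted p = 0.0189). The fit with only the groups compared did not (adjusted p = 0.241).

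Promoter sequences of RefSeq (GRCm38.p6) were used for 7 of the 9 genes, and 3 are shown as examples. Of these, Tubb2a and Tubb4b rose with the N-fragment and with N+C, while Tuba1a fell with WT, the C-fragment and N+C. Each run is the 250 bases before the annotated start, 5′ to 3′ on the gene's strand. Capitals mark the motif CCAAT, the motif TATAAA and the motif GGGCGG, each read on either strand, so that ATTGG or CCGCCC is marked as well. No marked motifs overlap.
Tubb2a (chr13:34078009-34078258, minus strand): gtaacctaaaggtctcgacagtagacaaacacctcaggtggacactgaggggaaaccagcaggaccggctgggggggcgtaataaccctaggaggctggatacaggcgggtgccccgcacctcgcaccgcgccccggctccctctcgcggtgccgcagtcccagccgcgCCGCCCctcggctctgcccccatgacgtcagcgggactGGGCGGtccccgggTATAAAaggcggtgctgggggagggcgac
Tubb4b (chr2:25224703-25224952, minus strand): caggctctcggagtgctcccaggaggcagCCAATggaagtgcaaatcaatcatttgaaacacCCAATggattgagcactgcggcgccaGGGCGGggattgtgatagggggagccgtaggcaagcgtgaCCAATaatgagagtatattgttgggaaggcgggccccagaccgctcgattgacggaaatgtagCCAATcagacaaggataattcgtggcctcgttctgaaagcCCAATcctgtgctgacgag
Tuba1a (chr15:98953502-98953751, minus strand): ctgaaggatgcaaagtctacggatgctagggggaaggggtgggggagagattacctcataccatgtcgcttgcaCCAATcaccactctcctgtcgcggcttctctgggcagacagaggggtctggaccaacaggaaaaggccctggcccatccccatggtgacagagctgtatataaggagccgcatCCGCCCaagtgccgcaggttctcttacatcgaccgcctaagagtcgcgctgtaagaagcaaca
The Tubb2a window holds 1 TATAAA, starting 29 bases before the start site, and 2 GGGCGG, whereas that of Tubb4b holds 5 CCAAT and 1 GGGCGG. The Tuba1a window holds 1 CCAAT and 1 GGGCGG. That of Tuba1c, which also rose with the N-fragment and N+C but is not shown, holds 1 CCAAT, 0 TATAAA and 0 GGGCGG. Among 32851 mouse promoter windows of this length, 12.4% hold TATAAA, 33.8% hold CCAAT and 32.7% hold GGGCGG, on either strand. The kappaB decamer of NF-kB was found in 0 of the 7 tubulin windows and in 7.25% of all windows, which says only that these letters are not in these 250 bases. Tubb2b and Tubb6 are not among the 7 used, so no window of either gene was searched for any motif. Their absence here does not show that RefSeq lacks a promoter for either gene. The kappaB count therefore says nothing about Tubb2b or Tubb6.

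Tuba1a, the main alpha-tubulin of developing neurons, fell with 3 of the 5 constructs. Void read 5.70, 5.52 and 5.49, and the C-fragment 4.90, 4.94 and 4.95, the lowest of the 20 arrays. The difference with the C-fragment was -0.64 ± 0.09 log2 (adjusted p = 0.000279). With WT (5.26, 5.22 and 5.02) the difference was -0.40 ± 0.09 (adjusted p = 0.0123), a call lost when the fit held only WT and void (adjusted p = 0.0711) and without scaling between arrays, where the difference was 0.00. With N+C (5.27, 5.35, 5.16, 5.00 and 5.04) it was -0.41 ± 0.08 (adjusted p = 0.00182), a call lost without scaling (-0.19, adjusted p = 0.233). The arrays of WT, the C-fragment and N+C did not overlap void. D361E (5.23, 5.39 and 5.33) was not called (adjusted p = 0.0833). With the N-fragment Tuba1a read 5.49, 5.53 and 5.42, close to void (-0.09 ± 0.09, adjusted p = 0.499), and 0.55 ± 0.09 above the C-fragment (adjusted p = 0.000421).

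Tuba1c, an alpha-tubulin of dividing cells, rose slightly with the N-fragment and N+C. Void read 7.45, 7.38 and 7.44 and the N-fragment 7.77, 7.74 and 7.69, a difference of 0.31 ± 0.06 (adjusted p = 0.00146). N+C read 7.49, 7.65, 7.62, 7.77 and 7.69, and the difference of 0.22 ± 0.06 (adjusted p = 0.0103) was lost when the fit held only void and N+C (adjusted p = 0.117). The WT, D361E and C-fragment arrays lay between 7.35 and 7.59 and were not called; without scaling between arrays WT was called higher (0.34, adjusted p = 0.00457). Tuba1b, the most widely used alpha-tubulin, was called in none of the 9 comparisons by either of its 2 probes. Its brighter probe (A_55_P2154132) ranged from 8.26 to 8.85 on 19 arrays but read 5.69 on N+C array 3, where the second probe (A_55_P2116496) read 7.05, inside the 6.98 to 7.24 of the other N+C arrays. With that spot in the fit the standard error of Tuba1b lay between 0.52 and 0.58 log2 in every comparison.

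**Figure D2:**
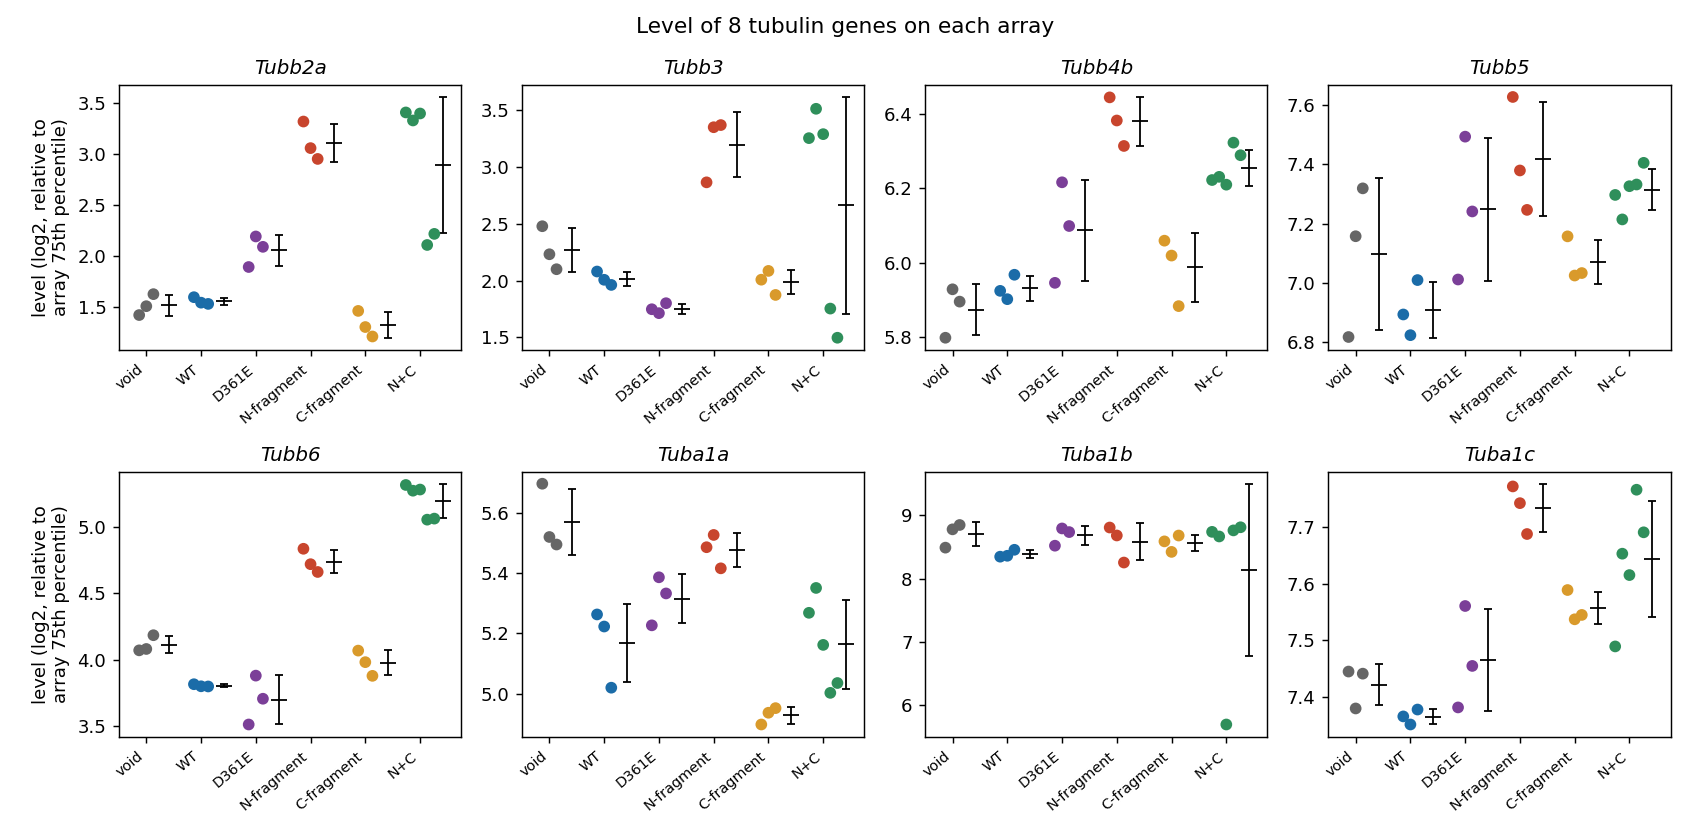
Level of the other 8 tubulin genes on each of the 20 arrays, on the probe used in the fit; the y axis is log2 signal relative to the array's 75th percentile with a separate scale in each panel, points are arrays and black bars give mean ± SD. The N+C arrays of Tubb2a and Tubb3 fall into a set of 3 and a set of 2, and Tuba1b has 1 low point at 5.69.

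Counted over the 8 tested genes, the N-fragment raised 4 and lowered 0 against void (Tubb2a, Tubb4b, Tubb6 and Tuba1c), against a background in which 31.1% of all genes were called, 13.2% higher and 17.9% lower. N+C raised the same 4 genes and lowered Tuba1a, with 24.6% of all genes called, 11.8% higher and 12.8% lower. Of the 8, WT lowered Tuba1a alone, where 9.39% of all genes were called, 3.22% higher and 6.16% lower. D361E lowered Tubb6 alone, where 13.5% of all genes were called, 6.04% higher and 7.44% lower. The C-fragment lowered Tuba1a alone, where 13.1% of all genes were called, 4.88% higher and 8.25% lower. A count of 1 in 8 is near those backgrounds. The median difference of the 8 was 0.41 with the N-fragment and 0.30 with N+C, beside -0.06 and -0.03 over all genes. It was -0.22 with WT, 0.01 with D361E and -0.14 with the C-fragment, beside -0.03, -0.04 and -0.02. These comparisons share the 3 void arrays, so their agreement is not independent.

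Comparisons that leave void out gave these counts. Between the N-fragment and the C-fragment 4 of 8 were higher (Tubb2a, Tubb4b, Tubb6 and Tuba1a) and 0 lower, with 20.1% of all genes called, 9.99% higher and 10.2% lower. Tubb3 differed by 1.20 ± 0.41 and was not called (adjusted p = 0.0508). Some other limma settings called it, among them only the groups compared (1.20 ± 0.16, adjusted p = 0.00598) and the slide as a block (1.36 ± 0.38, adjusted p = 0.0138). Of 6 fits that leave out 1 array, 0 called it. N+C against the C-fragment gave 3 higher (Tubb2a, Tubb4b and Tubb6) and 0 lower, with 17.3% of all genes called, 10.5% higher and 6.86% lower. For Tubb2a that difference was 2.06 with arrays 1 to 3 and 0.84 with arrays 4 and 5, both called. Tubb3 was higher than with the C-fragment on arrays 1 to 3 alone (1.36 ± 0.13, adjusted p = 1.76e-06) and read -0.36 ± 0.15 against it on arrays 4 and 5 (adjusted p = 0.103). Tuba1a was called higher than with the C-fragment with arrays 1 to 3 (0.33, adjusted p = 0.00398) and not with arrays 4 and 5 (0.09, adjusted p = 0.448). Tuba1c was called higher than with the C-fragment with arrays 4 and 5 alone (0.17, adjusted p = 0.0473). N+C against the N-fragment gave Tubb6 higher and Tuba1a lower (-0.31 ± 0.08, adjusted p = 0.012), with 22.1% of all genes called, 12.6% higher and 9.52% lower. The Tuba1a call was lost when the limma fit held only these groups (adjusted p = 0.0925) and in 1 of 8 fits that leave out 1 array. With N+C arrays 4 and 5 alone, Tubb2a (-0.95 ± 0.12, adjusted p = 5.27e-05) and Tubb3 (-1.57 ± 0.15, adjusted p = 5.55e-06) were also lower than with the N-fragment. With arrays 1 to 3 alone Tuba1c was lower as well (-0.15, adjusted p = 0.0475). D361E and WT differed in 0 of the 8 by limma at an adjusted p under 0.05 and in 2 (Tubb4b and Tubb5) at an unadjusted p under 0.05. Of all genes 4.21% were called, 2.42% higher and 1.79% lower, and 15.4% had an unadjusted p under 0.05. The 95% interval of D361E minus WT was -0.12 to 1.13 log2 for Tubb2a and -0.30 to 0.09 for Tubb6.

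**Figure D3:**
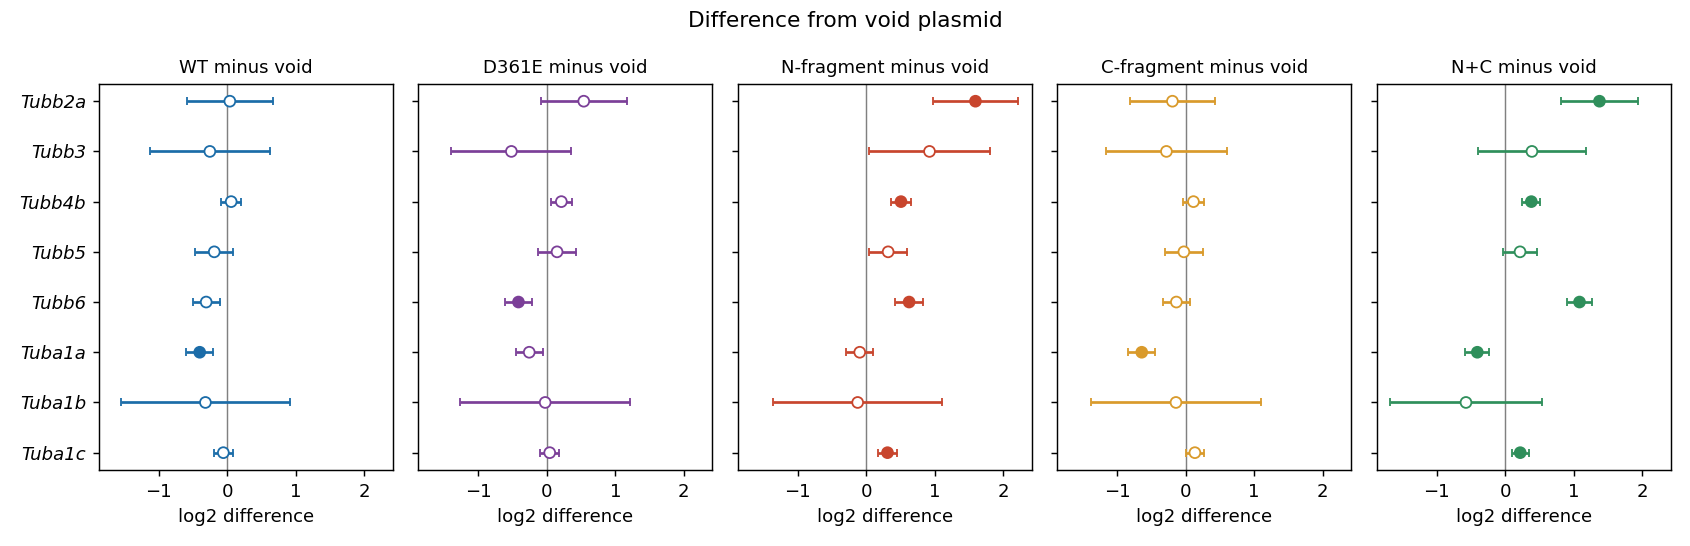
Log2 difference from void plasmid for the 8 tested tubulin genes under each of the 5 constructs; points are estimates from the limma fit to 20 arrays, bars are 95% confidence intervals, and filled points had an adjusted p under 0.05. The N-fragment and N+C panels each hold 4 filled points to the right of 0, and Tuba1a is filled to the left of 0 with WT, the C-fragment and N+C.

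The separate N+C sets touched the 9 genes unequally. Tubb2a and Tubb3 had mean levels of 3.38 and 3.35 on arrays 1 to 3, and of 2.16 and 1.63 on arrays 4 and 5. Tubb6 (5.29 and 5.06) and Tuba1a (5.26 and 5.02) were moderately higher on arrays 1 to 3, whereas Tubb4b (6.22 and 6.31), Tubb5 (7.28 and 7.37) and Tuba1c (7.59 and 7.73) were slightly lower there. These differences between arrays of 1 group are a description, and nothing in the labels separates the arrays.

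**Figure D4:**
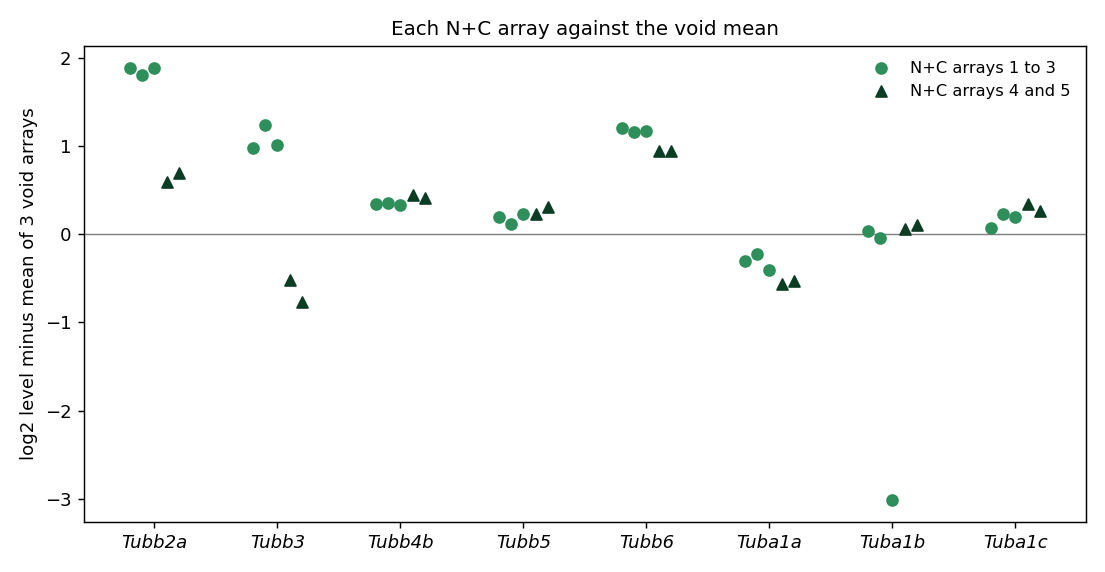
Level of the 8 tested tubulin genes on each of the 5 N+C arrays as a log2 difference from the mean of the 3 void arrays; circles are arrays 1 to 3 and triangles are arrays 4 and 5. Tubb2a and Tubb3 separate the arrays, with Tubb3 above 0 on arrays 1 to 3 and below 0 on arrays 4 and 5, while Tubb4b, Tubb5 and Tuba1c lie slightly higher on arrays 4 and 5.

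The tested neighbours of Tubb2b on chromosome 13, in the RefSeq order, did not share its pattern. On the Tubb2a side, the following gene, Bphl, a hydrolase, was lower with the N-fragment (-0.62, adjusted p = 5.1e-05), the C-fragment (-0.65, adjusted p = 0.000143) and N+C (-0.51, adjusted p = 0.00019). Beyond Bphl, Ripk1 was higher with the N-fragment (0.29, limma adjusted p = 0.0149) and N+C (0.33, adjusted p = 0.00504), and Nqo2 was not called. On the other side Psmg4, a proteasome assembly factor, differed from void by at most 0.21 with any construct. Psmg4 was called higher with the C-fragment (adjusted p = 0.0435) and N+C (adjusted p = 0.0165). Beyond it Slc22a23, a transporter, was above background on 3 of 3 N-fragment arrays and 0 of 3 void arrays, which is at least 2.53-fold higher (limma adjusted p = 0.00544). Slc22a23 was not above background with the C-fragment or D361E, where Tubb2b was. It was above background on WT array 3 and on N+C arrays 4 and 5. The next genes on that side, Pxdc1 and Fam50b, were not tested.

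The genes whose levels most resembled those of the brighter Tubb2b probe were sought among 2854 named genes whose group means span at least 1 log2 unit. The measure was Pearson correlation over the 20 arrays, which share groups, slides and scaling. The 10 closest were Lsr (r = 0.898), Ctsl (0.870), Mid1 (0.866), Rorb (0.843), Il17d (0.835), Hspb1 (0.833), Tbc1d16 (0.827), Fkbp1b (0.814), Hoxb8 (0.808) and H2-M2 (0.807). Mid1 encodes a ubiquitin ligase that binds microtubules, and Hspb1 a small heat-shock protein. Hspb1 read -1.53, -1.43 and -1.56 with void and 1.29, 1.32 and 1.45 with the N-fragment, and its WT, D361E and C-fragment arrays lay between, at -0.34 to 0.07. On N+C arrays it read -1.09 to -0.93, low like the brighter Tubb2b probe but above void. Not all of the 10 were higher than void with WT. The means with void and WT were 3.77 and 3.74 for Ctsl, -0.45 and -0.69 for Il17d, and 0.66 and 0.61 for Tbc1d16. Rorb was above background on 0 of 3 void and 0 of 5 N+C arrays, and Mid1 on 1 array of each of these groups. The 5 least alike were Lrrc51 (r = -0.938), Galnt10 (-0.935), Filip1l (-0.924), Hsd17b14 (-0.922) and Prtg (-0.906). Tubulin genes were not among the 10 closest to Tubb2b. Tubb4b, Tubb5, Tuba1a, Tuba1b and Tuba1c could not appear there, since their group means span less than 1 log2 unit.

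Other genes of the tubulin pathway were taken from lists chosen for their function. Their counts against void stand beside 31.1% of all genes called with the N-fragment, 24.6% with N+C, 13.1% with the C-fragment, 9.39% with WT and 13.5% with D361E. Of 10 further tubulin genes tested, the N-fragment raised 3 and lowered 1, N+C raised 1 and lowered 2, the C-fragment raised 2 and lowered 1, WT raised 1 and lowered 1, and D361E raised 0 and lowered 1. The calls of Tuba4a with the C-fragment and of Tube1 with the C-fragment and WT were lost on leaving out 1 array in 5, 4 and 5 of 6 fits. The call of Tuba4a with the N-fragment was lost in 4 of 6 such fits, and that of Tubb4a with N+C in 5 of 8. The Tubb4a call with N+C was also lost with arrays 1 to 3 alone (limma adjusted p = 0.065) and with arrays 4 and 5 alone (adjusted p = 0.08). Tubg2, a gamma-tubulin that nucleates microtubules, was lower with each of the 5 constructs. It read 1.48, 1.73 and 1.85 with void and 0.88 to 1.32 on the other 17 arrays, a difference of -0.59 to -0.69 log2 (adjusted p from 0.000284 to 0.00264). Its D361E call was lost when the fit held only these 2 groups (adjusted p = 0.0848), and its WT call without scaling (-0.25, adjusted p = 0.0522). Tubb4a, a brain beta-tubulin, rose with the N-fragment (0.60 ± 0.12, adjusted p = 0.00114).

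Of 21 genes that fold tubulin, namely the tubulin cofactors, prefoldin and the CCT chaperonin, the N-fragment raised 3 and lowered 1, N+C raised 4, D361E 3, the C-fragment 2 and WT 1, with 0 lowered by those 4. For the N-fragment that is 4 of 21, below the share of all genes called. Their medians against void lay between -0.03 and 0.14, and the largest called change was Pfdn4 with N+C (0.61 ± 0.21, adjusted p = 0.0423), a call lost in 5 of 8 fits that leave out 1 array and with N+C arrays 4 and 5 alone (0.27, adjusted p = 0.433). The 3 genes of tubulin mRNA autoregulation, through which cells degrade tubulin mRNA when free dimers accumulate (Ttc5, Scaper and Cnot11), were called with none of the 5 constructs. Of 9 genes of the gamma-tubulin complex, the N-fragment raised 3 and lowered 1, and N+C raised 4 and lowered 1. D361E raised 2, the C-fragment raised 1 and WT raised 0, with 0 lowered by these 3. With N+C, the calls of Tubgcp2 and Tubgcp3 were lost in 5 and 3 of 8 fits that leave out 1 array.

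Of 20 tubulin-modifying enzymes, N+C raised 3 and lowered 2, the N-fragment raised 3 and lowered 1, and the C-fragment raised 2 and lowered 2. WT raised 0 and lowered 2, and D361E raised 1 and lowered 0. Svbp, the partner of the enzymes that clip the C-terminal tyrosine of alpha-tubulin, rose with D361E, the N-fragment, the C-fragment and N+C (0.32 to 0.60 log2). Its calls with D361E and with N+C were each lost in 3 fits that leave out 1 array, and the latter with N+C arrays 4 and 5 alone (0.30, adjusted p = 0.108). Agbl5, a carboxypeptidase that trims glutamates from tubulin tails, fell with WT, the N-fragment, the C-fragment and N+C (-0.41 to -0.90). The N+C call of Agbl5 was lost with quantile normalization (adjusted p = 0.0552) and without scaling (-0.20, adjusted p = 0.251), and its WT (-0.14, adjusted p = 0.423) and C-fragment (-0.41, adjusted p = 0.0529) calls without scaling. The N+C and WT calls were lost with only the groups compared (adjusted p = 0.104 and 0.0855) and on leaving out void array 2 or 3. For Agbl5 1 of the 3 N-fragment arrays was an outlier spot and was left out.

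Of 30 microtubule-associated genes tested, the N-fragment raised 9 and lowered 5, and N+C raised 8 and lowered 1. D361E raised 5 and lowered 1, the C-fragment raised 4 and lowered 5, and WT raised 2 and lowered 1. Map6, which stabilises microtubules against cold, was higher with each of the 5 constructs. It read 2.09, 2.03 and 2.08 with void, 2.34 to 2.39 with WT, 2.52 to 2.65 with the C-fragment, 2.71 to 2.87 with D361E, 3.32 to 3.57 with N+C and 3.84 to 3.97 with the N-fragment, and no group overlapped another. The differences from void ran from 0.29 ± 0.07 with WT (adjusted p = 0.0136), a call lost as the mean of probes (0.19, adjusted p = 0.142) and without void array 2 or WT array 3, to 1.84 ± 0.07 with the N-fragment (adjusted p = 2.27e-11).

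Map2, a dendritic microtubule protein, was not above background on any N-fragment array and was at least 1.60-fold lower there than with void (limma adjusted p = 3.14e-06), while with N+C it was higher (0.88 ± 0.15, adjusted p = 0.000597). Camsap3, which caps microtubule minus ends, fell with the N-fragment, from -1.92, -1.94 and -1.82 on the void arrays to -4.07, -4.07 and -3.70 (-2.05 ± 0.32, adjusted p = 0.000135). Of N+C arrays, 1 to 3 read -2.06, -2.05 and -1.88 for Camsap3 and 4 and 5 read -0.83 and -0.88, so this gene separates the 2 sets as well. Fign, a microtubule-severing protein, rose with the N-fragment (0.85 ± 0.11, adjusted p = 1.5e-05) and with D361E (0.62 ± 0.11, adjusted p = 0.000911).

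The melanocyte, neural crest and fibroblast marker lists also differed between some groups. The summed level of 12 melanocyte markers lay between 1458 and 1569 with void, 1262 and 1362 with WT, and 1425 and 1599 with D361E. It lay between 1250 and 1467 with the N-fragment, 1404 and 1562 with the C-fragment, and 1368 and 1457 with N+C. The summed level of 10 neural crest markers, of which 6 were above background on all 20 arrays and Foxd3, Tfap2b and Twist1 on none, lay between 83.6 and 106 on N-fragment arrays and 86.4 and 103 on N+C arrays, against 61.9 to 82.7 with void, 68.0 to 71.9 with WT, 77.0 to 92.4 with D361E and 66.3 to 70.4 with the C-fragment. Sox10, which is on the melanocyte list as well, was the brightest neural crest marker, with group means of 5.25 to 5.57 log2. The members did not move together. With void, the N-fragment and N+C, Nes had means of 3.14, 4.00 and 4.39, and Tfap2a of 2.63, 3.69 and 3.33. Snai2 had -0.59, 0.50 and -0.02, and Sox10 had 5.33, 5.51 and 5.57, so these were higher than void in both. Pax3 (4.07, 3.99 and 3.82) and Sox9 (-2.60, -2.96 and -3.47) were lower. Ngfr, above background on 8 of 20 arrays, had -5.76, -0.86 and -5.72. Of 9 fibroblast markers, Col1a2 was above background on all 20 arrays and Col3a1, Dcn, Lum and Pdgfrb on none. The summed level of 8, without Fbln1, which had an outlier spot on 1 N-fragment array, lay between 2.85 and 3.48 with the N-fragment, 1.28 and 1.64 with void, 1.05 and 1.16 with WT, 1.20 and 1.63 with D361E, 0.663 and 0.751 with the C-fragment and 0.199 and 0.683 with N+C. Fbln1 was brighter than each of the 8, with mean levels of 2.44 to 2.79 log2 in the groups other than the N-fragment. Col1a2, the brightest of the 8, had means of 0.46 with void, 1.33 with the N-fragment, -0.70 with the C-fragment and -2.16 with N+C. The sum thus follows mainly that gene. The part of these markers in the tubulin results was not tested.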

How the data were processed

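Total RNA of 20 samples was hybridised to one-colour Agilent arrays, on 5 slides of 4 per the file headers. The authors deposited scanner files of Agilent Feature Extraction 10.7.3.1, per the submitters' processing notes, whose background-subtracted intensity values were used. The series table was found equal to them on all 44397 features, so the deposited table is linear and unscaled, and log2 values and the scaling were computed here from the deposited intensity.

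With limma 3.58.1 in R 4.3.3, log2 intensity minus the array's 75th percentile was taken; the arrays' percentiles lay within 1.45-fold of each other. Outlier spots (98 to 285 per array) were left out, and 0 spots reached saturation. A probe was kept where 3 or more arrays had it well above background, and the brightest probe stood for a gene, giving 18738 genes, of which 4915 had no symbol. The 6 groups were fitted together (residual df 14), and p-values were Benjamini-Hochberg adjusted over all genes within each of 9 comparisons; changed, raised, fell and called mean an adjusted p under 0.05. Errors of group means are SD, those of differences SE. The number of arrays limits the precision.

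The 9 genes, the pathway and marker lists and the tests were chosen with earlier results of these data known. Named were all 9 genes, Rela, up to 3 called genes per direction of each list, of which the text gives some, and the 10 most and 5 least like Tubb2b. The neighbours of Tubb2b, and the arrays shown for single pathway genes, were chosen after values were seen. The fit was tested on simulated data. Samples labelled "Blanck" were read as void plasmid. The titles carry running numbers only, so no sample was paired. Alternatives were quantile normalization, no scaling, other filters, mean of probes, only the groups compared, the slide as a block, a trended robust fit and each array left out. Added after seeing the data were local background subtraction with an offset of 50, N+C arrays 1 to 3 or 4 and 5 only, the other probe of Tubb2b and Tuba1b, and the low Tuba1b spot taken as missing.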

Additional observations from a re-analysis of the deposited data

Results flagged for a closer look

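Tuba1b on its brighter probe was low on N+C array 3, at 5.69 on the log2 scale relative to the 75th percentile, against 8.67 to 8.81 on the other 4 N+C arrays. The gap to the nearest array was 0.953 of the whole range, above Dixon's critical value of 0.71 for 5 samples, a limit that chance passes in about 1 of 20 groups. Of the 11 tubulin probes this was the only one with such an array among N+C, the one group large enough to be examined. The second Tuba1b probe read 7.05 on that array. With the spot taken as missing, Tuba1b was called in none of the 9 comparisons.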

How the results depend on the processing

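No paired analysis was possible because the sample titles carry only running numbers. Values for the 8 tested tubulin genes were compared under the alternatives that keep every array or a set of N+C arrays. Of these, 783 of 840 kept their side of the threshold. The called ones among them kept their direction, whereas some uncalled ones changed sign. One such was Tubb3 for N+C against the C-fragment (0.67, and -0.36 with arrays 4 and 5 only). A further 47 became called, 8 lost their call and 2 were called in the other direction. These 2 were Tubb3 with N+C arrays 4 and 5 only against void (-0.64) and Tuba1c with WT against void without scaling (0.34). Leaving out 1 array kept 471 of 480 by the same rule. The number of the 8 tested genes called against void was then 1 to 1 (C-fragment), 1 to 2 (D361E), 4 to 5 (N-fragment), 4 to 5 (N+C) and 0 to 1 (WT). It was 0 to 0 for D361E against WT, 4 to 4 for N-fragment against C-fragment, 2 to 5 for N+C against C-fragment and 1 to 2 for N+C against N-fragment.

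Under other settings the counts that moved by over 1.5 times were these. Without scaling, where the median difference of all genes from void was 0.12 to 0.37 rather than -0.06 to -0.02, the called genes were 3 for the C-fragment, 2 for WT (both higher), 1 for D361E against WT and 7 for N-fragment against C-fragment. Quantile normalization gave 7 for the last and 2 for D361E against void. For D361E against void, the filter on all arrays, the slide as a block, the trended robust fit and local background subtraction gave 2 each; for WT against void the filter on all arrays, the trended robust fit and local background subtraction gave 2 each. With only the groups compared, N+C against N-fragment gave 1 and N+C against void gave 3. N+C against C-fragment gave 5 with arrays 1 to 3, and N+C against N-fragment gave 4 with arrays 4 and 5.

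Tubb2b differed from void by 1.80 (WT), 1.43 (D361E), 3.69 (N-fragment), 2.67 (C-fragment) and -1.24 (N+C) as the mean of its probes. Local background subtraction gave 1.53, 1.42, 3.85, 2.59 and -0.45, and the other probe 0.12, -0.36 (reversed), 1.30, 0.58 and -0.42. Leaving out 1 array gave 3.24 to 3.63, 2.98 to 3.37, 5.83 to 6.22, 4.51 to 4.91 and -2.30 to -1.91. The filter on all arrays leaves no value for Tubb2b.

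Among pathway genes and neighbours of Tubb2b these reversed. Without scaling, WT against void gave Clip1 0.10, Bphl 0.25, Pfdn6 0.30, Ripk1 0.33, Cct3 0.34, Ttll1 0.35, Ttll4 0.36, Tpgs2 0.36, Cct5 0.37, Mapre2 0.38 and Tubb4a 0.38, beside a median of 0.37 over all genes; the N-fragment gave Mzt2 0.06, Pfdn6 0.07 and Ttll1 0.33, and the C-fragment Ttll1 0.03. As the mean of probes Mapre2 (C-fragment against void) gave -0.08 and Tpgs2 (N+C against C-fragment) -0.12. Mapre1 was -0.40 for N+C against N-fragment with arrays 4 and 5 only, and Mapre3 0.35 for N+C against void with arrays 1 to 3 only. Calls over all genes fell from 4601 to 2023 for N+C, and from 2527 to 1451 for D361E, with only the groups compared. For WT they went from 1759 to 7678 without scaling (7425 higher and 253 lower), 3381 with local background subtraction and 1116 without a filter. The N-fragment without scaling gave 6323 higher and 1121 lower. Leaving out 1 array took calls as low as 941 for WT, 1434 for the C-fragment (from 2460), 469 for D361E against WT and 1960 for N+C against C-fragment. D361E against WT went from 788 to 1404 without scaling and 522 without a filter. N+C against N-fragment fell from 4136 to 1927, and N+C against C-fragment from 3246 to 1866, with only the groups compared; the latter gave 2064 without scaling and 5665 with arrays 1 to 3. The cause was not tested. Normexp correction could not be fitted on 5 of 20 arrays and is not reported. Signal over background limits the brighter Tubb2b probe, which is below background with N+C and near it with void.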
